A study of Mus musculus with 4 samples.

Results

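Forskolin was set against vehicle in cultured mouse adipocytes, on 2 of the 4 arrays of the study and across all genes, with most room given to genes outside the list of classic early CREB targets. Per the study's design text, primary adipocyte cultures were made from visceral fat, and RNA was taken after 2 h with 10 µM forskolin or with DMSO, the vehicle. The sources used here did not give the strain, sex and age of the mice or the number of cultures behind each array. The other arrays, marked WT in the file headers, held whole epididymal fat pads from control mice on normal chow and from mice that ate, over 12 weeks, a high fat diet of 60%. The Affymetrix arrays carried 22626 probe sets, in which several short probes read the same transcript. Of 13108 named genes, 6704 were compared, namely those whose brighter adipocyte array reached the median level of all genes on that array. Each group held 1 array, so a difference has no replicate check, no test was run, no p-value is given, and precision is limited by the number of arrays. With 1 extract of RNA per group, a change in some of the cells and a change in all of them cannot be told apart, nor can fewer cells of a type and less RNA per cell.

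Forskolin is a plant compound that activates adenylyl cyclase, the enzyme that makes the intracellular messenger cAMP. cAMP releases the catalytic subunits of protein kinase A, which phosphorylate CREB on target promoters. CREB binds the cAMP response element (CRE) or its shorter core and turns on early genes such as Fos, Nr4a1 and Crem. In fat cells the same messenger carries the signal of catecholamines, which starts the breakdown of stored triglyceride, and its effects are limited by receptors, phosphodiesterases and kinases that act back on the pathway.

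The adipocyte label was set against marker genes, and those of fat cells were bright on both arrays. Of 14 listed adipocyte markers 13 were measured and 12 reached the level filter, and all 13 lay within 1.5-fold between the arrays. Adiponectin (Adipoq) read 10261 with vehicle and 10449 with forskolin, and the fatty acid binding protein gene Fabp4 read 10823 and 11401. The summed level of 10 endothelial markers was 1041 and 1043, of 13 fibroblast and preadipocyte markers 7244 and 7098, with 5 at or above the filter, and of 12 macrophage markers 5059 and 5252, with 3. The sum of 7 smooth muscle markers was 9208 and 8212, most of it from the actin gene Acta2 at 5867 and 5099 and from Tagln at 2944 and 2719. None of the 7 measured mesothelial markers reached it. Among the 12 marker lists, only the pancreas list held a gene past 2-fold at the filter, and this was Ins2. The median intensity was 236.5 with vehicle and 237.3 with forskolin, and the highest 13690 and 13960.

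Few compared genes were apart by 2-fold, and most of these were higher with forskolin. The threshold was passed upward by 82 of the 6704 genes (1.22%) and downward by 9 (0.134%), and 6502 differed by less than 1.5-fold (96.99%). These shares are the background for the list counts given further on. The lists were chosen with earlier results of these data known, so a larger share in a list is a description and not a test of that function. The lists' counts within 1.5-fold also include measured members below the filter, so they are not on the same basis. On the log2 scale, the median difference was -0.016 and the median absolute difference 0.094. Another 77 genes lay between 1.5-fold and 2-fold higher and 34 between 1.5-fold and 2-fold lower. Among the 6347 genes below the level filter the split was nearly even, with 170 past 2-fold upward and 133 downward. Those dim genes are not described further unless a listed gene is named.

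**Figure D1:**
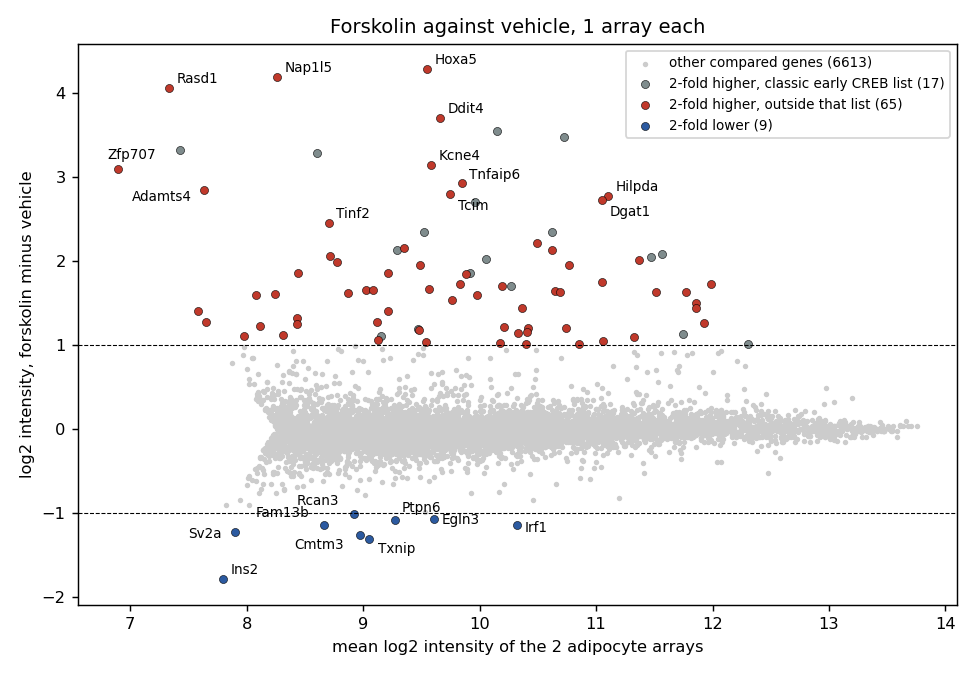
Log2 difference between forskolin and vehicle (vertical) against the mean log2 intensity of both adipocyte arrays (horizontal), with 1 point per compared gene and dashed lines at 2-fold. Most points lie in a flat band around 0, and the 65 higher genes outside the classic list reach as far up as the 17 classic ones. Of the 9 lower genes Ins2 lies furthest from the line, at -1.79, and the next is Txnip at -1.31.

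Of the 26 listed classic early CREB targets 24 were measured, and 17 of the 20 that reached the level filter passed 2-fold upward, against 1.22% of all compared genes. Fos, an AP-1 transcription factor, read 331.2 with vehicle and 3884 with forskolin. Dusp1, a phosphatase of MAP kinases on the same list, had no difference because its forskolin cell was empty, with vehicle at 2147. The other 65 higher genes were outside the list. Their median fold was 3.10, against 4.23 for the 17 classic genes, and 6 of them passed 8-fold, against 4 of the classic ones. In 23 of the 65, vehicle lay below the median level of all genes, so these were compared only because forskolin was high. Of the 65, 30 belonged to at least 1 of 27 function lists and 35 to none.

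The promoters of the higher genes outside the classic list were read for the letters that CREB binds. The window ran from 250 bases before to 50 after the start of each gene in RefSeq (GRCm38.p6), and 45 of the 65 genes had a promoter there. The full CRE, TGACGTCA, was in 4 of the 45 (8.89%), against 3.9% of the 5417 compared genes with a promoter. They were Tinf2, which encodes a protein of the telomere cap, Has1, a hyaluronan synthase, Ccnl1, a cyclin tied to splicing, and Slc25a25, a mitochondrial carrier of ATP. They are shown because they carry the whole palindrome, in capitals, in the 250 bases before the start. The windows were chr14:55681818-55682067 for Tinf2, chr17:17855189-17855438 for Has1, chr3:65958250-65958499 for Ccnl1 and chr2:32424067-32424316 for Slc25a25, all on the minus strand.
Tinf2: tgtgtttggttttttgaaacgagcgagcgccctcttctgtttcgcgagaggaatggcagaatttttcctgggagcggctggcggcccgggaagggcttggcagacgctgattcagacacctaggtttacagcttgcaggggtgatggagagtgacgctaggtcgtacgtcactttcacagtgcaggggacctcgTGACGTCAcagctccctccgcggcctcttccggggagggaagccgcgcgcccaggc
Has1: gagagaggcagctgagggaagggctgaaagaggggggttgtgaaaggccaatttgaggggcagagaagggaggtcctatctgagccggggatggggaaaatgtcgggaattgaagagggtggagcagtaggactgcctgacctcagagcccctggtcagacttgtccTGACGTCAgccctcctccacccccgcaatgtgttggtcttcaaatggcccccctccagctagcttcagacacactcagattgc
Ccnl1: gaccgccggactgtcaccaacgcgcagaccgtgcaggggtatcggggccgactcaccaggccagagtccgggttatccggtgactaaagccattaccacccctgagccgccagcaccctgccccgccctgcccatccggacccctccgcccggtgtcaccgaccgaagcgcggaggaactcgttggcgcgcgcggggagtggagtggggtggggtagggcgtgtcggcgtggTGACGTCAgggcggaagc
Slc25a25: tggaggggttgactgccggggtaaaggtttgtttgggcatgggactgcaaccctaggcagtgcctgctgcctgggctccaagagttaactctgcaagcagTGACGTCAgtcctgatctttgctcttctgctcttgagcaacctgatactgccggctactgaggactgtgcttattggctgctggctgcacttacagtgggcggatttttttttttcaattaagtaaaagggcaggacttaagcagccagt
The motif began 56 bases before the start in Tinf2, 83 in Has1, 18 in Ccnl1 and 150 in Slc25a25. Tinf2 also held the core at other places in its window, 1 of them after the start.

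The 5-base core, TGACG or its reverse complement CGTCA, was in 25 of the 45 promoters (55.6%), against 38.6% of the 5417 and 12 of 14 classic promoters (85.7%). The count of the core includes the full CRE, which contains it on each strand. The 5 genes with the largest differences that had no full CRE but a core in the 250 bases before the start, with 18 bases of the window on each side of it, are shown with the core in capitals. Hilpda has 2 promoters in RefSeq, and the core shown belongs to the upstream start. Nap1l5 held the core only after its start and is not shown. They lay at chr6:52204782-52204822 on the minus strand (Hoxa5), chr1:78816843-78816883 on the plus strand (Kcne4), chr6:29272362-29272402 on the plus strand (Hilpda), chr13:23423904-23423944 on the minus strand (Abt1) and chr2:121140884-121140924 on the minus strand (Lcmt2).
Hoxa5: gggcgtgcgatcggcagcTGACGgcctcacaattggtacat
Kcne4: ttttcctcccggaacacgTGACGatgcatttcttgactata
Hilpda: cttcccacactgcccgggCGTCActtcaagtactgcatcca
Abt1: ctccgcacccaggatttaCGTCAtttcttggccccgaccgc
Lcmt2: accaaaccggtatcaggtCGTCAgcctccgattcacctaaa
The core began 217 bases before the start in Hoxa5, 50 in Kcne4, 108 in Hilpda, 60 in Abt1 and 208 in Lcmt2. Among the genes 1.5-fold to 2-fold higher outside the classic list, 35 of 67 promoters held the core (52.2%). Of the 9 lower genes 7 had a promoter, 1 of them with the core (14.3%) and 0 with the full CRE. Of the genes 1.5-fold to 2-fold lower 29 had a promoter, 9 with the core (31%) and 0 with the full CRE. The TATA box TATAAA, searched on the strand of the gene, was in 2 of the 45 promoters (4.44%) and in 5.65% of the 5417. A match is a run of letters, not a measured binding site.

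The authors' deposited table gives most genes a class for a predicted CRE, without a description of the method in the sources used here. Of the 65 higher genes outside the classic list, 19 were classed CRE_TATA (29.2%, against 9.83% of all compared genes), 19 CRE_NoTATA (29.2%, against 17.7%), 19 others (29.2%, against 62.7%) and 8 had no class. The 17 classic genes were divided in another way, with 13 CRE_TATA (76.5%) and 0 CRE_NoTATA. Of the 9 lower genes 8 were classed others (88.9%). The class CRE_NoTATA held Hoxa5, Nap1l5, Ddit4, Tinf2, Abt1, Lcmt2 and Vegfa, and CRE_TATA held Rasd1, Kcne4, Dgat1, Klf4 and Has1, while Tnfaip6, Adamts4, Tcim and Hilpda were in others.

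**Figure D2:**
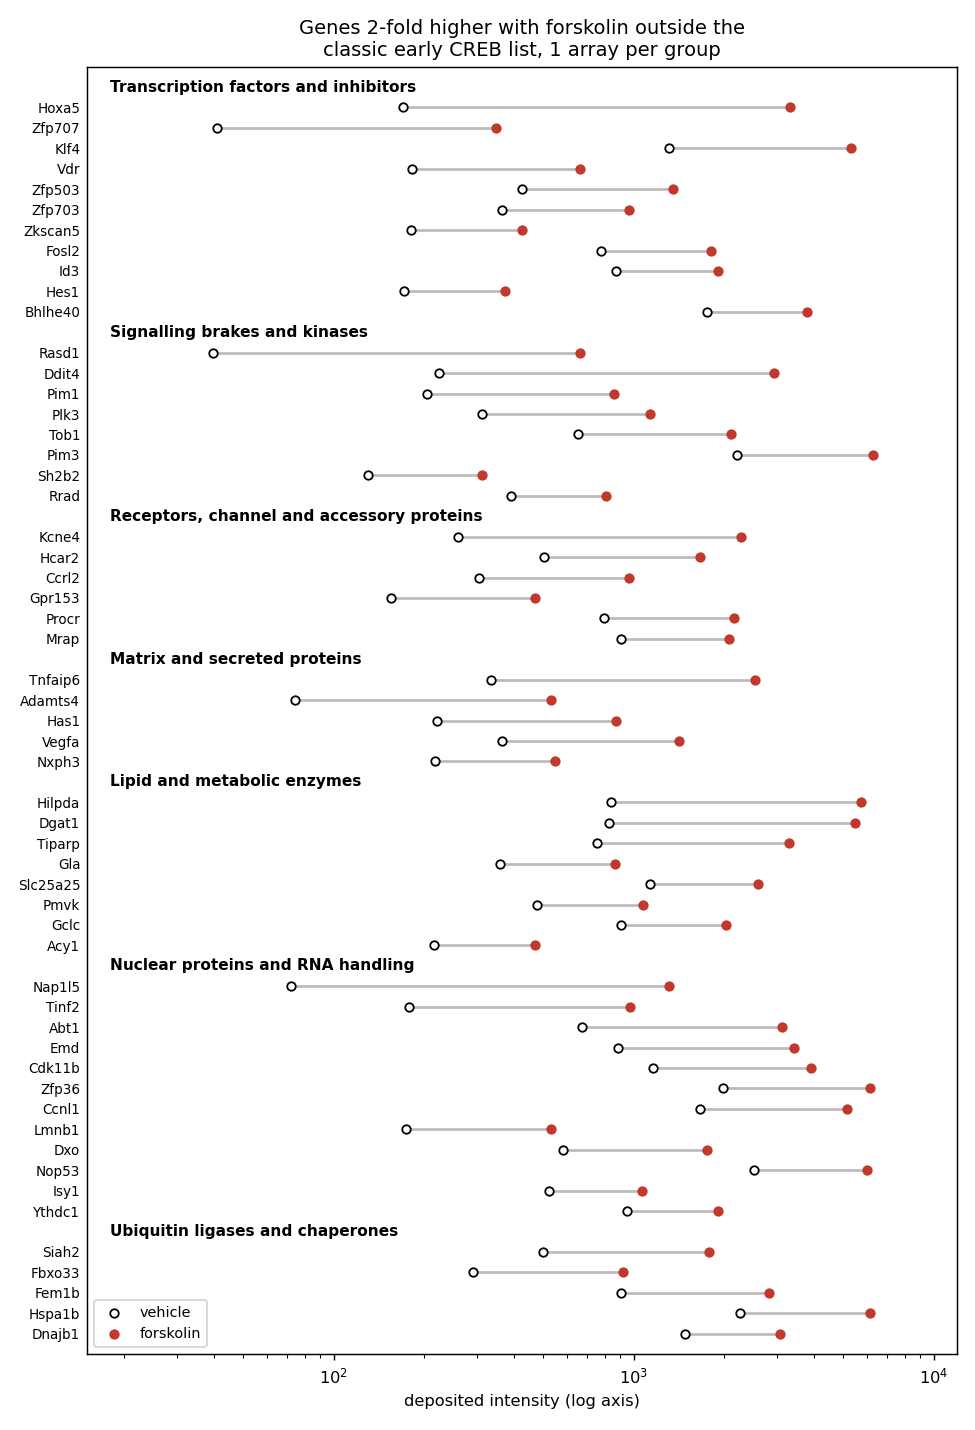
Deposited intensity (log axis) with vehicle (open circles) and with forskolin (filled circles) for 55 of the 65 higher genes outside the classic list, grouped by the role of the encoded protein, 1 array per group. Every filled circle lies at least 2-fold to the right of its open circle, and the longest lines belong to Hoxa5, Nap1l5 and Rasd1.

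Transcription factors and their inhibitors made up 11 of the 55 genes placed in a role. Hoxa5, a homeobox factor that sets position along the body axis, read 170.1 with vehicle and 3312 with forskolin. At 19.5-fold higher this was the largest difference among compared genes on the 1 probe set used for each. A further probe set of the classic gene Rgs2, not the one used, read 23.2 and 1794 (77.4-fold). In its family list, with 39 measured homeobox and forkhead genes, Hoxa5 was the only member 2-fold higher. In that list 33 of the 39 lay within 1.5-fold, beside 96.99% of all compared genes. The remaining 6, Hoxa5 among them, were all at least 1.5-fold higher, and the list median was 0.15 on the log2 scale. The next at the filter, Hoxb4, read 348.6 and 541.2. Zfp707, a zinc finger protein, went from a dim 40.9 to 347.9 (8.51-fold). Klf4, a Krüppel-like factor that steers differentiation, read 1315 and 5287 (4.02-fold), and its other probe set 1152 and 5310. Vdr, the receptor of vitamin D, read 182.8 and 662.7 (3.63-fold), and its other probe set showed a larger difference, 118.4 and 815.1. Vdr was the only member of the nuclear receptor list, with 35 measured, that was 2-fold higher at the filter.

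Zfp503 and Zfp703, related zinc finger repressors, were higher together, the former at 425.2 and 1353 (3.18-fold) and the latter at 362.9 and 966.3 (2.66-fold). Fosl2, a partner of Jun proteins, read 780.1 and 1803 (2.31-fold). Id3, which keeps basic helix-loop-helix factors off DNA, read 870.1 and 1915 (2.20-fold), and Hes1, a repressor of the Notch pathway, 171.5 and 370.9 (2.16-fold). Bhlhe40, a repressor in the clock, read 1758 and 3767 (2.14-fold). The list of zinc finger, bHLH and bZIP factors had 38 members at the filter. Of these 6 were 2-fold higher and 0 lower, beside 1.22% and 0.134% of all compared genes. The 6 were Klf4, Zfp707, Fosl2, Id3, Hes1 and Zfp36, the last a protein of mRNA decay. Zfp707 and Hes1 reached the filter only with forskolin. Zfp503, Zfp703 and Bhlhe40 are not in that list. Over all 50 measured members 9 were at least 1.5-fold higher, 7 of them past 2-fold. Another 7 were at least 1.5-fold lower, Myc among them, and 2 of these were past 2-fold. The list median was 0.02 on the log2 scale, against -0.016 for all compared genes.

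Signalling brakes and kinases formed a group of 8, with both arrays far apart for Rasd1 and Ddit4. Rasd1, a Ras-like GTPase named for its induction in dexamethasone-treated cells, read 39.5 and 659.7 (16.7-fold). Ddit4, which holds back the growth kinase mTORC1, read 224.6 and 2929 (13.0-fold). The kinase Plk3, linked to cell stress, read 311.3 and 1132 (3.63-fold). Within the list of growth arrest and mTORC1 brakes 18 of 24 measured members reached the filter, Ddit4 only with forskolin. Of the 18, 2 were 2-fold higher and 0 lower, beside 1.22% and 0.134% of all compared genes. Of the 24, 20 lay within 1.5-fold, and the list median of 0.24 was the highest of the 27 function lists. Gadd45g, a stress-induced binding partner of kinases, read 2204 and 4138 (1.88-fold).

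The other members of that group were 2 kinases of the Pim family, an mRNA decay adaptor, an insulin receptor adaptor and a Ras-like GTPase. Pim1, a kinase that promotes survival, read 205.3 and 857.1 (4.18-fold). Pim3 read 2210 and 6264 (2.83-fold), 2970 against 1174 on a further probe set, and 53.7 against 59.8 on the dimmest. Tob1, which recruits the complex that shortens poly(A) tails, read 649.6 and 2110 (3.25-fold), and its relative Tob2 540.0 and 993.9 (1.84-fold). Rrad, a Ras-like GTPase that restrains calcium channels, read 388.4 and 807.5 (2.08-fold). Of 27 measured Ras-like GTPases and regulators 11 reached the filter. Rasd1, which reached the filter only with forskolin, and Rrad were the 2-fold higher members among these 11, beside 1.22% of all compared genes. Next came Rab20, a GTPase of membrane traffic, at 412.6 and 797.9. Sh2b2, an adaptor of the insulin receptor, read 129.8 and 312.4 (2.41-fold), though its other probe set read 90.1 and 120.9.

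Receptors, a channel subunit and accessory proteins included a receptor that acts back on cAMP in fat cells. Hcar2, the niacin receptor, which lowers cAMP and lipolysis through an inhibitory G protein, read 501.3 and 1667 (3.33-fold). In the list of cAMP breakdown genes and PKA subunits 28 of 31 measured members lay within 1.5-fold, beside 96.99% of all compared genes. Prkaca, the main catalytic subunit, read 1431 and 1330, and the regulatory subunit Prkar1a 4183 and 4536.

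Kcne4, an accessory subunit of voltage-gated potassium channels, read 258.9 and 2281 (8.81-fold), and of 36 measured channel genes it was the only 2-fold higher member among the 9 at the filter. Ccrl2, an atypical receptor that presents chemerin, read 305.7 and 964.7 (3.16-fold). The orphan receptor gene Gpr153 read 155.8 and 469.8 (3.02-fold), and Procr, the receptor of protein C, 798.0 and 2167 (2.72-fold). Mrap, which brings the ACTH receptor to the cell surface, read 904.4 and 2075 (2.29-fold), while its other probe set was near the floor on both arrays, at 23.4 and 0.

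A few hyaluronan matrix and protease genes were higher. Of 24 measured members 13 reached the filter, and 3 of these were 2-fold higher and 0 lower, beside 1.22% and 0.134% of all compared genes. Among the 3, Has1 and Adamts4 reached the filter only with forskolin. Within 1.5-fold lay 18 of the 24, members below the filter included, beside 96.99% of all compared genes, which were all at the filter. Tnfaip6, a secreted protein that links hyaluronan to other matrix chains, read 334.9 and 2546 (7.60-fold). Has1, which makes hyaluronan, read 220.8 and 875.0 (3.96-fold), while the hyaluronan receptor gene Cd44 read 3537 and 3659 and the other synthases, Has2 at 153.8 and 163.0 and Has3 at 74.7 and 77.8, stayed below the filter. Adamts4, a protease that cleaves the proteoglycan aggrecan, read 74.1 and 530.6 (7.16-fold), and its relative Adamts1 2591 and 4758 (1.84-fold). Among secreted factors, Vegfa, which drives vessel growth, read 365.0 and 1411 (3.87-fold) on 1 probe set and 785.1 and 2003 (2.55-fold) on the other. It was the only 2-fold difference among 19 growth factors and hormones at the filter, with Fgf2 at 311.1 and 545.9 and Gdf15, a stress hormone, at 3250 and 5217. Nxph3, a secreted ligand of neurexins, read 218.2 and 545.5 (2.50-fold).

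Cytokine genes held 1 difference of 2-fold at the filter, that of Ccrl2. Of 35 measured cytokines, chemokines and receptors 19 reached the filter and 31 lay within 1.5-fold. The 96.99% of all compared genes covers only genes at the filter, so the 2 shares cannot be ranked. Il6, a cytokine also released by fat, read 2650 and 4966 (1.87-fold), and Csf2, a myeloid growth factor, went the other way, from 1487 to 887.0 (1.68-fold lower). In whole fat the same probe sets were dim, with Il6 at 66.1 (chow) and 48.0 (high fat diet) and Csf2 at 24.97 and 36.9.

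Lipid and metabolic genes held 2 proteins of triglyceride storage. Dgat1, which adds the last fatty acid of triglyceride, read 824.1 and 5470 (6.64-fold). Hilpda, a lipid droplet protein that inhibits the main triglyceride lipase, read 842.5 and 5736 (6.81-fold). Both probe sets carry a suffix that allows several transcripts. In the triglyceride and droplet list, which holds Dgat1 but not Hilpda, 32 of 34 measured members lay within 1.5-fold, the median was 0.06, and Dgat1 was the only 2-fold difference at the filter. Dgat2, an unrelated enzyme of the same step, read 5990 and 5561, the lipase gene Pnpla2 6816 and 6455, and the hormone-sensitive lipase gene Lipe 606.5 and 646.1.

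Slc25a25, a calcium-regulated carrier of ATP into mitochondria, read 1134 and 2596 (2.29-fold) and was the only 2-fold difference among 36 measured transporters. Tiparp, an ADP-ribosyltransferase, read 752.3 and 3290 (4.37-fold), and its other probe sets were 5.78-fold and 5.84-fold higher. Gclc, which makes the precursor of glutathione, read 905.2 and 2026 (2.24-fold), and Pmvk, of the mevalonate pathway, 476.0 and 1077 (2.26-fold). Acy1, which frees acylated amino acids, read 215.2 and 467.6 (2.17-fold). Gla, a lysosomal galactosidase, read 358.2 and 863.3 (2.41-fold), with 42.2 and 53.5 on its other probe set. Of 35 measured fatty acid and sterol synthesis genes 33 differed by less than 1.5-fold, with none past 2-fold. Its largest differences were those of Star, which moves cholesterol into mitochondria, at 1236 and 2228 (1.80-fold), and Abca1, which exports cholesterol, at 448.5 and 803.2 (1.79-fold).

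Nuclear proteins and RNA handling proteins were the largest group by role, with 12 genes. Nap1l5, an imprinted gene of the nucleosome assembly protein family, read 71.85 and 1316 (18.3-fold). Of 28 measured imprinted genes it was the only 2-fold difference and 25 lay within 1.5-fold, with Plagl1, an imprinted zinc finger gene, at 1871 and 3532 (1.89-fold). Tinf2, whose promoter holds a full CRE, read 178.4 and 973.7 (5.46-fold). Abt1, an activator of basal transcription, read 671.1 and 3111 (4.64-fold). The nuclear envelope genes Emd, for emerin, and Lmnb1, for a lamin, read 886.4 and 3421 (3.86-fold) and 173.8 and 530.2 (3.05-fold).

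Cdk11b and Ccnl1, a kinase and a cyclin that act together in splicing, were higher side by side, the kinase at 1161 and 3899 (3.36-fold) and the cyclin at 1658 and 5147 (3.10-fold). Zfp36, which binds AU-rich messages and leads to their decay, read 1991 and 6156 (3.09-fold). Dxo, a decapping enzyme, read 582.8 and 1752 (3.01-fold). Nop53, of ribosome assembly, read 2511 and 6009.7 (2.39-fold), Isy1, of the spliceosome, 520.2 and 1063 (2.04-fold), and Ythdc1, a nuclear reader of methylated adenosine, 947.1 and 1913 (2.02-fold). Zfp36 and Tob1 were the 2-fold higher members of the RNA processing and decay list, where 24 of 28 measured lay within 1.5-fold and the median was 0.10. The other Ythdc1 probe set read 1574 and 2627 (1.67-fold).

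Ubiquitin ligase genes and chaperones closed the higher groups. Siah2, a RING ligase, read 497.3 and 1787 (3.59-fold), and 270.9 and 1213 on its other probe set. Fbxo33, a substrate receptor of a cullin ligase, read 292.3 and 924.4 (3.16-fold), and Fem1b, of the same kind, 906.3 and 2828 (3.12-fold). In the ubiquitin list these were the 3 members 2-fold higher among 22 at the filter, beside 1.22% of all compared genes. Fbxo33 reached the filter only with forskolin, and the list median was -0.03. Hspa1b, an inducible heat shock chaperone, read 2261 and 6125 (2.71-fold), and Dnajb1, its co-chaperone, 1482 and 3075 (2.08-fold). Hspa1b has the near-identical copy Hspa1a, so its signal cannot be assigned to either copy with certainty. Of 29 measured unfolded protein and heat shock genes 25 lay within 1.5-fold, and the next members were Bag3, a co-chaperone, at 2007 and 3358 (1.67-fold) and Hsph1 at 2199 and 3513 (1.60-fold).

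Some higher genes fitted no role above. Tcim, a small regulator of transcription, read 326.9 and 2269 (6.94-fold). Lcmt2, which modifies phenylalanine tRNA, read 308.3 and 1377 (4.47-fold). The selenoprotein gene Selenon read 511.7 and 1476 (2.88-fold), the NF-kappaB inhibitor-like gene Nfkbil1 224.7 and 534.0 (2.38-fold) and the midnolin gene Midn 814.4 and 1646 (2.02-fold). Oxnad1 read 266.5 and 820.3 (3.08-fold), and 2 further genes carry only clone names.

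**Figure D3:**
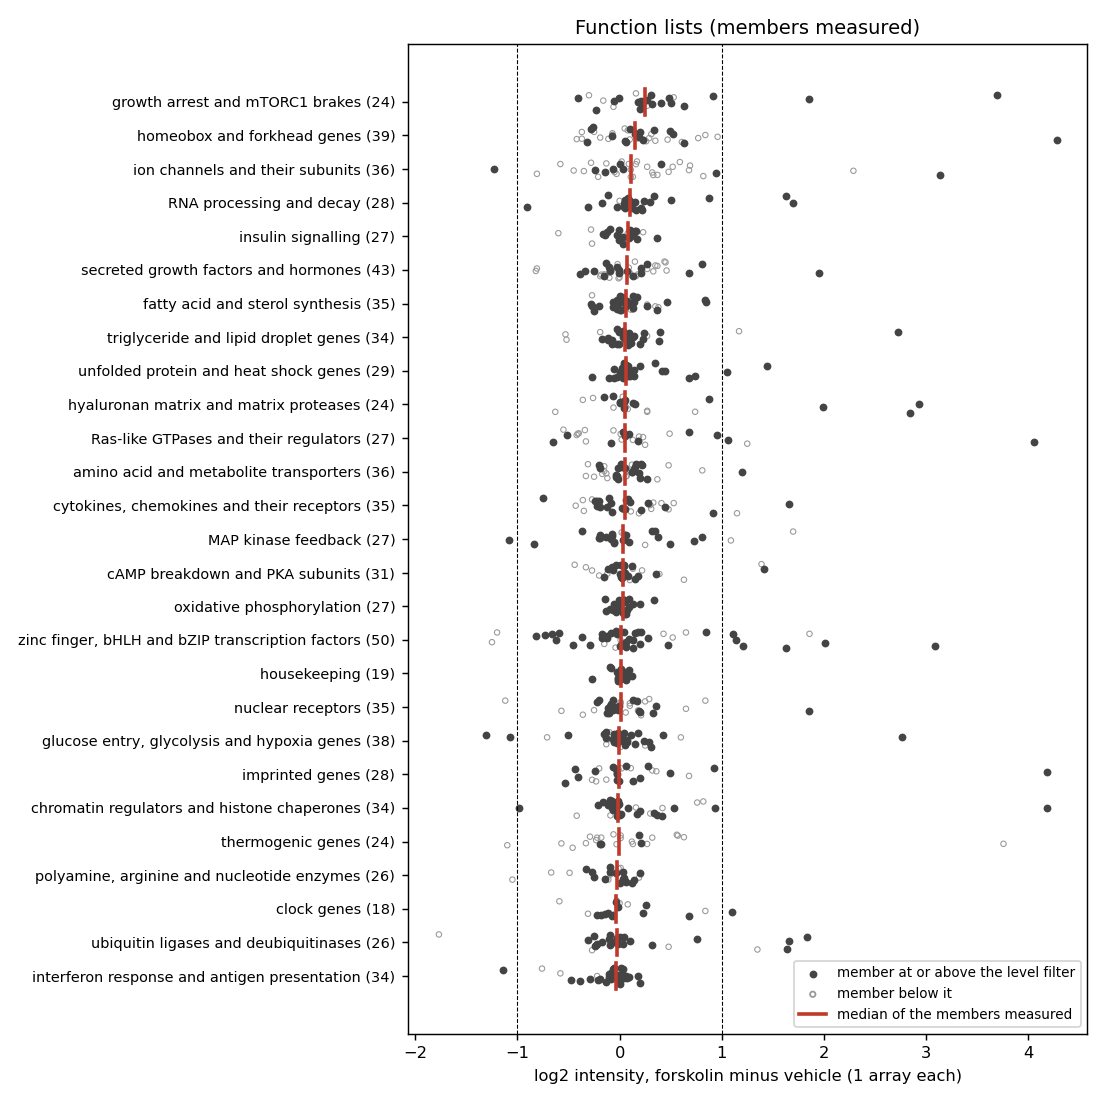
Log2 difference between forskolin and vehicle for each measured member of 27 function lists (filled points at or above the level filter, open points below it), with the list median as a bar and dashed lines at 2-fold. The bars lie between -0.04 and 0.24, and in each list most members lie between the dashed lines.

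Across the 27 function lists 19 held at least 1 member 2-fold higher at the filter and 4 held at least 1 member 2-fold lower, while the list medians ran from -0.04 to 0.24, beside -0.016 for all compared genes. The insulin signalling list, which holds neither the classic target Irs2 nor the adaptor Sh2b2, had 26 of 27 measured members within 1.5-fold. The share of all compared genes, which were all at the filter, was 96.99%, and the list median was 0.08. All 27 oxidative phosphorylation genes and all 19 housekeeping genes lay within 1.5-fold. Of 24 thermogenic genes 4 reached the filter. Ucp1, which uncouples respiration in brown fat, was at the floor with vehicle (19.7) and at 300.2 with forskolin, at least 13.6-fold higher but just under the filter. Mettl7b, a methyltransferase-like gene, and B3galt2, a galactosyltransferase gene, were also at the floor with vehicle, and were at least 5.76-fold and 5.26-fold higher, at 127.3 and 116.2 with forskolin.

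The lower genes were few, and several rested on 1 probe set. Ins2, an insulin gene, read 415.3 with vehicle and 119.8 with forskolin (3.47-fold lower). Its probe set can read other transcripts, the sister gene Ins1 read 309.2 and 348.7, and other pancreas markers at the filter, Cela1 and Prss2, read 459.3 and 479.1 and 1128 and 1130. The summed level of the 16 pancreas markers was 2847 and 2883. Of the 16, 5 were at least 1.5-fold higher and Ins2 alone was at least 1.5-fold lower, with a list median of 0.37 on the log2 scale. Iapp and Clps were 2-fold higher but below the filter. The part of pancreas RNA in the Ins2 value was not tested. Txnip, which binds thioredoxin and limits glucose uptake, read 837.0 and 337.7 (2.48-fold lower), and its other probe set 1129 and 560.9 (2.01-fold lower). Txnip was the only lower gene of the 4 with further probe sets in which another set was at least 1.5-fold lower.

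Irf1, an interferon regulatory factor, read 1903 and 864.7 (2.20-fold lower), while 32 of 34 measured interferon response and antigen presentation genes lay within 1.5-fold. Cmtm3, a membrane protein gene, read 777.0 and 323.7 (2.40-fold lower), and Sv2a, of synaptic vesicles, 365.6 and 156.2 (2.34-fold lower). Fam13b read 600.8 and 273.1 (2.20-fold lower). For the remaining 3 the further probe sets did not show the same direction. Egln3, an oxygen-sensing prolyl hydroxylase, read 1135 and 539.2 (2.10-fold lower), but 81.2 and 148.9 and 183.6 and 292.4 on its other sets. Rcan3, a calcineurin regulator, read 689.2 and 342.9 (2.01-fold lower), but 29.1 and 63.5 on the other. Ptpn6, a tyrosine phosphatase of blood cells, read 896.9 and 424.8 (2.11-fold lower) on a set whose suffix marks shared probes, and its other set was under the floor on both arrays.

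**Figure D4:**
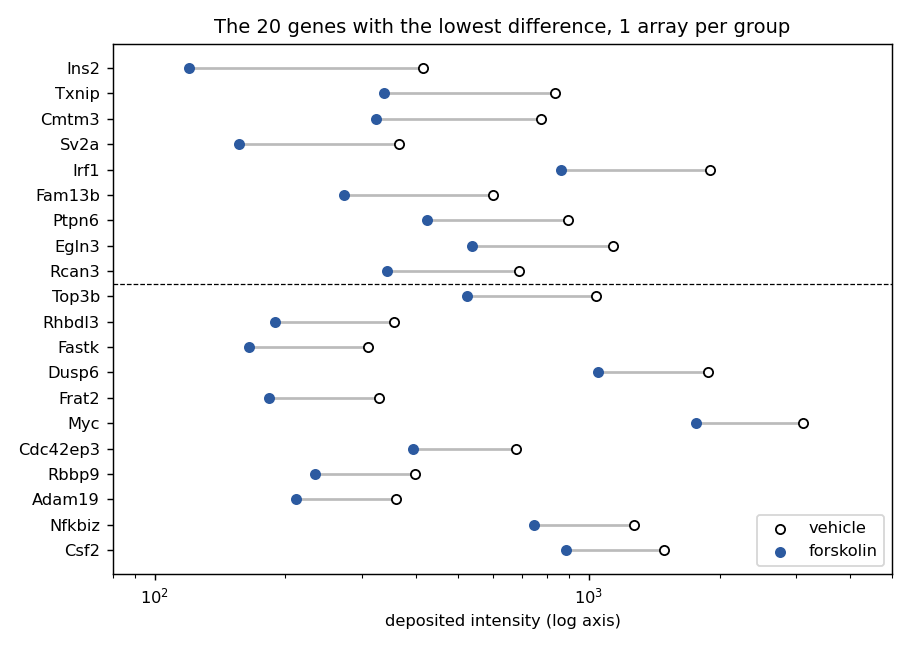
Deposited intensity (log axis) with vehicle (open circles) and with forskolin (filled circles) for the 20 compared genes with the lowest difference, 1 array per group. The 9 genes above the dashed line were at least 2-fold lower with forskolin, and the 11 below it, from Top3b to Csf2, were 1.98-fold to 1.68-fold lower.

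The next genes in that order included growth and MAP kinase genes at high levels. Dusp6, a phosphatase that turns off ERK, read 1877 and 1050.0 (1.79-fold lower). Myc, a growth factor-induced transcription factor, read 3111 and 1766 (1.76-fold lower). Nfkbiz, a nuclear regulator of NF-kappaB, read 1269 and 749.2 (1.69-fold lower). Among 27 measured MAP kinase feedback genes 21 lay within 1.5-fold, and members were found on both sides, with Phlda1 at 3579 and 6257 (1.75-fold higher) and the phosphatase Dusp8 at 285.6 and 474.5 (1.66-fold higher). Top3b, a topoisomerase, read 1041 and 525.0 (1.98-fold lower), closest to the 2-fold line from inside, as Rcan3 was from outside. On the higher side the values next to the line were those of the classic gene Egr1 at 2.02-fold, outside it, and Tusc2 at 1.98-fold, inside it.

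Other probe sets on the same arrays gave a check within each RNA extract. Of the 82 higher genes 56 had 1 probe set and 5 had others without both values. Of the remaining 21, 13 had every other set at least 1.5-fold higher too, 2 had some and 6 had none. Vdr, Tiparp, Klf4, Siah2, Dnajb1, Zfp503, Fbxo33 and Vegfa were among the 13, and Gla, Sh2b2, Zkscan5 and Mrap among the 6. In 4 higher genes a further set had 1 empty cell and its other value at or above the median level of all genes. For Hspa1b the vehicle cell was empty, with 8350 with forskolin. For the other 3 the forskolin cell was empty, with vehicle at 1113 for Nop53, 988.7 for Gclc and 482.1 for Fem1b. A set of the copy Hspa1a was also empty with forskolin, with vehicle at 1215. The meaning of an empty cell is not stated, so these sets give no direction.

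The same genes were then read in whole fat, on arrays that share nothing with the adipocyte pair. There, the diet array exceeded chow by 2-fold or more for 15.6% of 7183 compared genes and fell short of it by 2-fold or more for 5.97%. Of the 65 forskolin-higher genes outside the classic list 47 reached the filter in fat, with 4 higher (8.51%) and 13 lower (27.7%), and a median of -0.38 on the log2 scale against 0.17 for all genes compared. After quantile normalization of the fat arrays all genes split into 11.5% higher and 10.4% lower, and the 47 into 3 higher (6.38%) and 15 lower (31.9%). After centring all genes split into 12.2% and 9.36%, and the 47 into 3 and 13 (27.7%). The classic genes had 6 of 12 higher and 1 lower, with a median of 1.04. Of the 8 forskolin-lower genes at the filter in fat, Cmtm3, Irf1, Ptpn6 and Txnip were higher and Egln3 was lower.

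**Figure D5:**
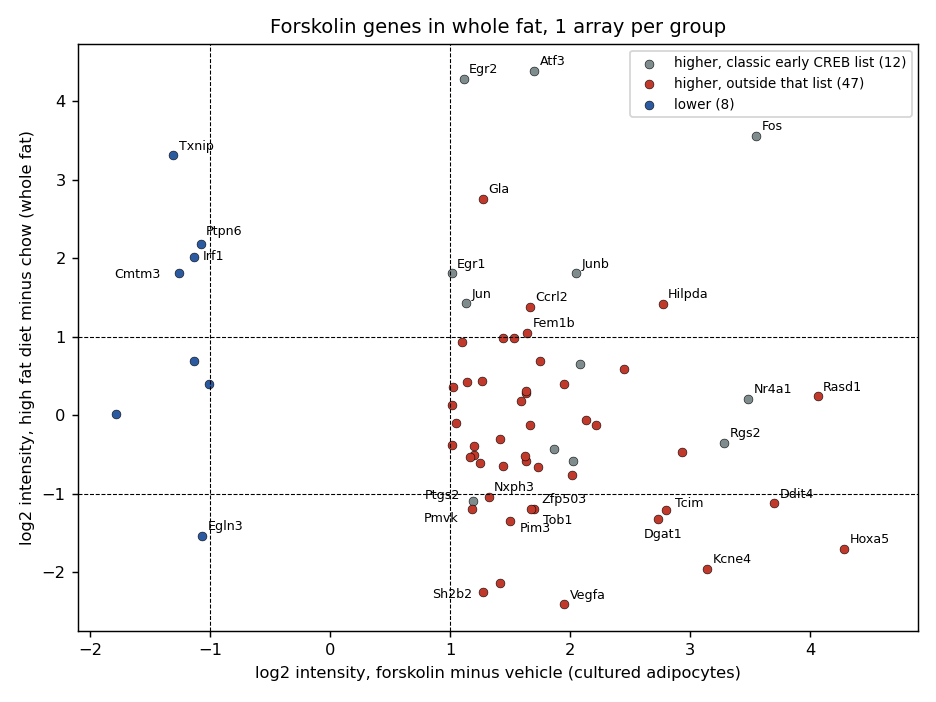
Log2 difference between high fat diet and chow in whole fat (vertical) against log2 difference between forskolin and vehicle in adipocytes (horizontal) for genes past 2-fold with forskolin that reached the filter in fat, with dashed lines at 2-fold, 1 array per group. Of the 47 higher genes outside the classic list 13 lie below the lower line, among them Hoxa5, Ddit4, Kcne4, Dgat1 and Vegfa.

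Among the 13, Vegfa read 2094 in chow fat and 395.5 in high fat diet fat. Sh2b2 read 1238 and 259.8, Kcne4 585.5 and 150.9, Hoxa5 1043 and 320.6, Dgat1 5243 and 2107 and Ddit4 3934 and 1810. The 4 genes higher in both were Hilpda, at 346.5 and 926.2, Ccrl2, at 275.1 and 717.5, Fem1b, at 720.2 and 1490.5, and Gla, at 127.4 and 861.4. Txnip, lower with forskolin, read 559.7 in chow fat and 5568 in high fat diet fat. Whole fat holds other cell types beside adipocytes, whose part in these fat values was not tested.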

How the data were processed

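RNA from 4 samples was measured on Affymetrix arrays. The deposited values are an intensity per probe set on a linear scale, per the file headers, and the sources used here do not name the software, background correction and normalization behind them. Both tables held the same values in 90504 of 90504 cells. The deposited fold and bound columns were not used.

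Empty cells were left out (99 with vehicle, 74 with forskolin), values under the 10th percentile of an array (22.1 and 22.23) were raised to it, and log2 was taken. A fold against the floor is a lower bound. Probe sets were named through a RefSeq gene table (GRCm38.p6), by gene ID for 20834, symbol for 42 and synonym for 183. For 316 the file's symbol was kept, 769 had no name, and 482 that listed several genes were set aside. Each gene was represented by the probe set with the most values over the 4 arrays and then the highest mean log2 level. Compared genes had to reach the median of all genes on the brighter array (306.8 for vehicle, 306.3 for forskolin), and a fold of 2 was the threshold.

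All genes past 2-fold at the filter could be named, except clone names, with the 20 lowest genes, up to 4 members of each list past 1.5-fold, genes rising from the floor and marker genes. Members of the pathway lists near 1-fold, Dusp1 and Tusc2 were named after their values were seen. Some genes that the rule selects are not reported here. The members, lists and roles were chosen with earlier results of these data known. Promoters came from RefSeq, matched by symbol or gene ID. The steps were tested on simulated data. Python 3.11.15, numpy 2.4.6, pandas 2.3.3 and matplotlib 3.10.9 were used. The alternatives were other folds, level filters, scalings, pseudocounts and probe set choices.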

Additional observations from a re-analysis of the deposited data

How the results depend on the processing

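The counts followed the fold and the level filter. At 1.5-fold 159 genes were higher, 43 lower and 141 higher outside the classic list, and at 3-fold 51, 1 and 38. Without the level filter they were 252, 142 and 234, and with the filter at the 75th percentile 2 genes were lower and 43 higher outside the classic list. Centring, quantile normalization of the adipocyte arrays, 16 added before log2, the probe set choices, a threshold of 6 median absolute deviations and the second table kept every count within 1.5 times. That threshold shared 75 of the 82 higher and 5 of the 9 lower genes. The probe set requirement and the settings for fat scaling and the promoter window were chosen after seeing the data. With the median over probe sets the log2 difference was 0.67 for Egln3, 0.06 for Rcan3 and -0.08 for the clone-named 4930453N24Rik, and with shared-probe suffixes left out it was 0.01 for Ptpn6. Part of the agreement was fixed in advance. The second table held the same values, and 56 of the 82 higher and 5 of the 9 lower genes had 1 probe set. A choice among probe sets could not change their values, and they met a requirement on all sets without a check. With these included, of 579 values for 85 named genes 565 kept direction and side of the threshold. Another 10 fell under 2-fold, among them Gla, Mrap, Sh2b2, Zkscan5 and Ythdc1. The cause was not tested beyond the values of the other probe sets. No paired analysis was possible because each group held 1 array, and for the same reason no array could be left out. Signal over background limits the values near the floor.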

Other observations

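Probe sets without a gene name held a few large differences. The lowest value of any probe set at the level filter with no name was 317.6 with vehicle and 64.6 with forskolin (4.92-fold lower), beyond the 3.47-fold of Ins2. A probe set of several histone H3 genes read 236.4 and 579.1 (2.45-fold higher), and a probe set of several heat shock genes 496.7 and 1088 (2.19-fold higher).

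Empty cells hid some bright probe sets. Of 129 probe sets with 1 empty adipocyte cell, 25 had the other value at or above the median level of all genes. The interferon-induced gene Gbp2 had a set that was empty with vehicle and read 4645 with forskolin.

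Genes next to a higher gene were higher about as often as any compared gene's neighbours. Of 66 protein-coding genes adjacent to a higher gene and compared, 2 were at least 1.5-fold higher (3.03%), against 2.32% of neighbours of all compared genes. They were Stk19, beside Dxo, at 317.1 and 613.2, and Atg101, beside Nr4a1, at 433.5 and 763.6.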
